A study of Mus musculus with 109 samples.

Results

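Cholesterol synthesis and its sterol control were followed here through 30 genes, of 37315 genes in the count table, named for their roles in the pathway. They fall into 5 role groups. The first holds 7 enzymes that lead from acetyl units through mevalonate to farnesyl diphosphate, and the second 11 enzymes that lead from there to cholesterol, so that 18 members are synthesis enzymes. The third holds 6 genes of sterol sensing and sterol transfer, the fourth 4 nuclear receptor and efflux genes, and the fifth 2 enzymes of fatty acid synthesis and desaturation. RNA was sequenced from 109 whole mouse retinas of 64 mice, 45 of which gave both retinas, with 54 retinas from females and 55 from males. The mice were 2 to 4 months old by the series' design and up to 6 months by the study's methods. Eyes received 2 uL into the vitreous of phosphate buffered saline (PBS, the control), of TNF (0.05 ug/uL when given alone), of IL1A (0.1 ug/uL when given alone) or of both cytokines together (IL1A+TNF). Wild-type (WT, C57BL/6J) retinas of batch 1 were collected on day 2 (31 PBS, 8 TNF, 9 IL1A and 10 IL1A+TNF), day 14 (7 PBS and 6 TNF) and day 35 (6 PBS and 9 TNF). Batch 2, all day 2, held 5 PBS and 6 IL1A+TNF WT retinas, and 6 PBS and 6 IL1A+TNF retinas of Sarm1-/- mice, which lack working Sarm1, an enzyme of axon degeneration, in every cell.

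Cells make cholesterol from acetyl units when SREBP2, the product of Srebf2, is carried out of the endoplasmic reticulum by SCAP, cut, and moved into the nucleus, where it switches on the synthesis genes. When sterol is plentiful, INSIG proteins hold SCAP back. Excess sterol is sensed by the nuclear receptors LXRA and LXRB (Nr1h3 and Nr1h2), which switch on export pumps such as ABCA1 and ABCG1. In the retina, Muller glia are a main site of sterol synthesis, and the membranes of photoreceptors and neurons use what is made or taken up.

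The promoters of 4 members are printed because these members carry the day 2 results, 3 that fell and 1 that rose. Each run is 300 bases around a RefSeq start site (GRCm38.p6), 5' to 3' on the gene's strand, with capitals on matches, on either strand, to the sterol regulatory element TCACNCCAC, to which SREBPs bind, and to the CCAAT box (CCAAT, or ATTGG on the other strand). No match of one motif overlapped a match of the other in these 4.
Hmgcs1 (chr13:119690101-119690400, + strand): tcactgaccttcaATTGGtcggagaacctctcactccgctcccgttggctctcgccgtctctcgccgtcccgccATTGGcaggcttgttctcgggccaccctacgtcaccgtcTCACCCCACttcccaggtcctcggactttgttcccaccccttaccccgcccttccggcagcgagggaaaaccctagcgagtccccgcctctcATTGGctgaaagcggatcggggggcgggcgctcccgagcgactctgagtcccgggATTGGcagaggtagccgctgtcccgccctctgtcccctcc
Insig1 (chr5:28071162-28071461, + strand): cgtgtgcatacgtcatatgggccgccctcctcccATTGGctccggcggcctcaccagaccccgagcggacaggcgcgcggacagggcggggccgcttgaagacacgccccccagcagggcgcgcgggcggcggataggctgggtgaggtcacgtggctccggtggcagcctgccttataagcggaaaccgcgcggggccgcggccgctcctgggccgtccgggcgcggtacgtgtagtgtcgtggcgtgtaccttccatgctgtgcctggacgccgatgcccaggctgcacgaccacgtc
Idi1 (chr13:8885356-8885655, + strand): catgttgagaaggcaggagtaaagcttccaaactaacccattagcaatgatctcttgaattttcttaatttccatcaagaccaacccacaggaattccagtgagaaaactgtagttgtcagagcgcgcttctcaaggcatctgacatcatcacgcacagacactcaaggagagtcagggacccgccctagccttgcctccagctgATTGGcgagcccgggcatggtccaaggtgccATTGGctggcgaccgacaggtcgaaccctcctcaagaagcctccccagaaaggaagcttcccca
Abca1 (chr4:53159846-53160145, - strand): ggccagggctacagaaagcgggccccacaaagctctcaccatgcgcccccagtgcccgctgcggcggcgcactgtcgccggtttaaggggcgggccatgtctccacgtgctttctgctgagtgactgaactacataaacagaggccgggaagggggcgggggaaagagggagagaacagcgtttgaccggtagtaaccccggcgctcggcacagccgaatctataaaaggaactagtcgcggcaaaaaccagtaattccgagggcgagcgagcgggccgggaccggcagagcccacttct

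The RefSeq promoter table held 33 promoters of 24 members, and had no entry for Sqle, Fdps, Fdft1, Scd2, Stard4 and Abcg1. TCACNCCAC was in 1 of the 33 (3.03%), that of Hmgcs1, beginning 137 bases before the start site, against 1.24% of 32851 promoters in the table. The CCAAT box was in 20 of the 33 (60.6%), against 37.4% of all promoters. It was in 14 of 18 promoters of synthesis enzymes (77.8%), which belong to 15 genes, and in 6 of 15 promoters of the other members (40%). Of the 4 printed promoters, that of Hmgcs1 held 4 CCAAT boxes, that of Idi1 held 2, that of Insig1 held 1 and that of Abca1 none. A match is a run of letters and was not tested for binding.

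The libraries held 30014757 to 79064488 counted read pairs (median 39374202), and each member had at least 80 counts in every retina, the lowest being Nr1h3. Libraries that stood apart are given beside the results they touch. They were the retinas of Sarm1-/- IL1A+TNF replicates 4 and 5, with mean absolute log2 deviations from their group medians of 0.51 and 0.55 over the genes, and TNF day 2 replicate 6, with 0.34, against 0.145 to 0.31 in the other 106 retinas. Sarm1 RNA was at 37.1 to 52.9 CPM (counts scaled to the effective library size) in Sarm1-/- PBS retinas and at 26 to 46.5 CPM in Sarm1-/- IL1A+TNF retinas, below the lowest WT retina of batch 2 (83.9 CPM). These are levels in bulk RNA, in which fewer cells of a type and less RNA per cell cannot be told apart.

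In the 31 day 2 PBS retinas of batch 1, levels per kilobase of exon (RPKM, from the library-scaled CPM) covered a wide range. Scd2, the main stearoyl-CoA desaturase of neural tissue, was highest at 120.7 ± 9.33 RPKM (SD, n = 31). Next were Hmgcs1, the HMG-CoA synthase, at 38.7 ± 4.45 RPKM (SD, n = 31), Insig1 at 29 ± 4 RPKM (SD, n = 31) and Srebf2 at 23.2 ± 1.61 RPKM (SD, n = 31). The lowest were Tm7sf2, a sterol 14-reductase, and Hsd17b7, a sterol 3-ketoreductase, both at 3.5 RPKM, and Nr1h3 at 1.49 ± 0.243 RPKM (SD, n = 31). Of all neighbours in this order, the ranges over retinas were separate only between Scd2 and Hmgcs1 and between Hsd17b7 and Nr1h3.

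The synthesis enzymes also varied together among control retinas. Over these 31 PBS retinas, the median Pearson r of the 153 pairs of enzymes was 0.44, and 143 pairs were positive. Against the mean of the other synthesis enzymes, r was 0.91 for Msmo1, 0.90 for Cyp51, 0.89 for Hmgcs1 and 0.87 for Insig1, which is no enzyme. At the other end, Tm7sf2 was at -0.03, Scap at -0.07 and Abca1 at -0.44. These retinas, of 31 mice, can share differences in depth and dissection, so the values are a description.

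IL1A+TNF was followed by lower RNA of nearly all synthesis enzymes on day 2. In WT retinas of batch 1, 28 of the 30 members passed the test (false discovery rate under 0.05, limma-voom with mouse as a random block, adjusted over 19548 genes), where 50.4% of all genes did. Of the 28, 23 were lower, against 25.5% of all genes, and 5 higher, against 24.9%. The median log2 fold change over the 30 was -0.34, and over all tested genes -0.02. Groups did not overlap for 7 members (Acat2, Hmgcs1, Fdps, Lss, Cyp51, Insig1 and Stard4), against 2.61% of all genes. In the 8 mice with PBS in one eye and IL1A+TNF in the other, 16 members were lower in all 8 pairs. The share of all genes lower in all 8 pairs is not given here, so this count cannot be set against it. With mouse as a fixed replicate block, in these 8 mice, 22 members passed, against 37.1% of all genes.

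**Figure D1:**
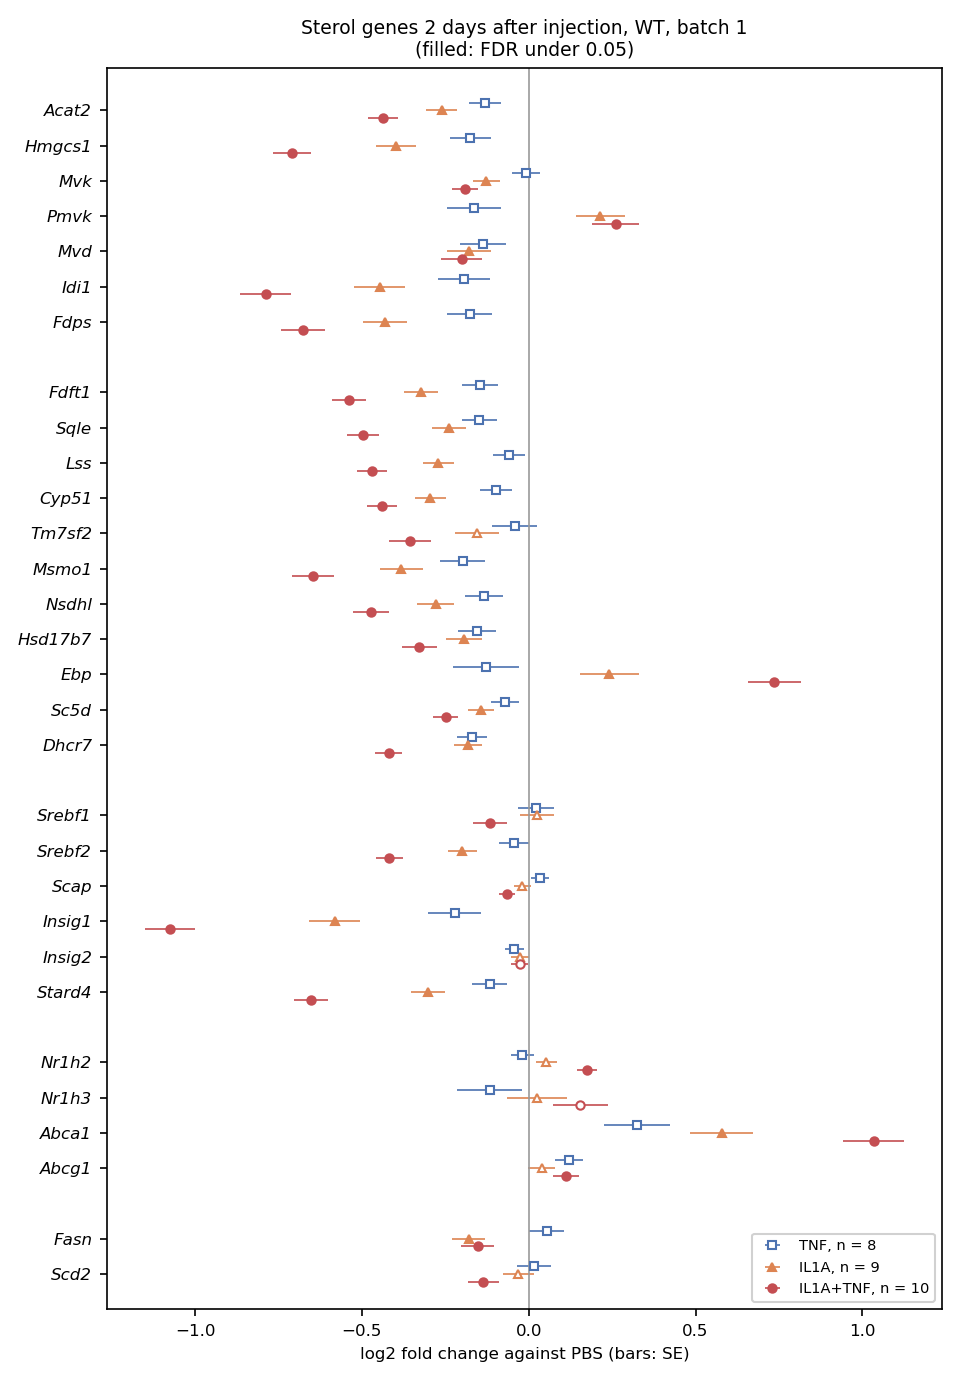
Log2 fold change of each member against PBS on day 2 in WT retinas of batch 1, grouped by role from top to bottom, with bars for the SE and filled symbols where the false discovery rate is under 0.05. Insig1 lies farthest to the left at -1.08 and Abca1 farthest to the right at 1.03 after IL1A+TNF, and no TNF symbol is filled.

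Among the mevalonate enzymes, 6 of 7 fell and Pmvk rose. Hmgcs1 (chr13:119690379-119708260, mm10), which makes HMG-CoA, ran at 144, 175 and 245 CPM (lowest, median and highest) in 31 PBS retinas and at 96.2, 106 and 134 CPM in 10 IL1A+TNF retinas. The groups did not overlap, and the log2 fold change was -0.71 (SE 0.0575, limma adjusted p = 1.015e-15). Idi1 (chr13:8885501-8892451), which makes the reactive isoprene unit, ran at 14.2, 21 and 28.7 CPM in PBS and at 10.3, 11.7 and 15 CPM after IL1A+TNF. It was lower in 8 of 8 mouse pairs, with the highest treated retina just above the lowest PBS retina, and its log2 fold change was -0.79 (SE 0.0761, limma adjusted p = 3.56e-13). Fdps, which builds farnesyl diphosphate, ran at 31.6, 40.3 and 55.6 CPM in PBS and at 21.4, 25.4 and 31.5 CPM after IL1A+TNF, for a log2 fold change of -0.68. Acat2, the cytosolic acetoacetyl-CoA thiolase, changed by -0.44, with 16.4, 19 and 24.3 CPM in PBS and 11.6, 14.6 and 15.9 CPM in treated retinas. The kinase Mvk (-0.19) and the decarboxylase Mvd (-0.20) fell less, and both overlapped PBS. Pmvk, the second kinase of the route, rose by 0.26 (SE 0.0702, limma adjusted p = 0.00145), from 26.8, 34.7 and 49.7 CPM to 30, 42.5 and 52.3 CPM. Its rise held in 5 of 8 mouse pairs only.

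Of the 11 enzymes from farnesyl diphosphate to cholesterol, 10 fell and Ebp rose. Msmo1, a methylsterol oxidase, ran at 49.3, 62.1 and 82.8 CPM in PBS and at 33.4, 38.9 and 49.7 CPM after IL1A+TNF, a log2 fold change of -0.65 (SE 0.0628, limma adjusted p = 4.54e-13). Fdft1, the squalene synthase, changed by -0.54, Sqle, the squalene epoxidase, by -0.50, and Lss, which closes the sterol rings, by -0.47. Fdft1 ran at 59.7, 72.1 and 86.1 CPM in PBS and at 41.6, 50.3 and 60.3 CPM after IL1A+TNF, and Sqle at 55.2, 63.6 and 83.3 CPM and at 37.5, 46.8 and 57.4 CPM, each with the highest treated retina just inside the PBS range. For Lss the groups were separate, with 59.6, 67.8 and 81.1 CPM in PBS and 43.7, 48.4 and 57.6 CPM in treated retinas. Nsdhl (-0.47), Cyp51 (-0.44), Dhcr7 (-0.42), Tm7sf2 (-0.36), Hsd17b7 (-0.33) and Sc5d (-0.25), which carry the later demethylation, reduction and desaturation steps, fell as well. Cyp51, the lanosterol demethylase, ran at 56.195, 66.7 and 83.7 CPM in PBS and at 44.6, 48.1 and 56.161 CPM in treated retinas, so that the groups were separate by a narrow gap. Ebp (chrX:8185329-8193512), the sterol isomerase, went the other way, from 14.2, 19.3 and 25.6 CPM to 21, 32.7 and 43.7 CPM. All 10 treated retinas were above the PBS mean, 7 of 8 mouse pairs were higher, and the log2 fold change was 0.74 (SE 0.0794, limma adjusted p = 1.26e-11).

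Among the sterol control genes, Insig1 (chr5:28071363-28078662) showed the lowest log2 fold change of the members. It ran at 70.9, 89.8 and 124 CPM in PBS and at 34.2, 39.7 and 62.4 CPM after IL1A+TNF, without overlap and lower in 8 of 8 mouse pairs. The log2 fold change was -1.08 (SE 0.0756, limma adjusted p = 8.53e-18). Stard4, which carries sterol between membranes, changed by -0.65, from 34.2, 41.7 and 50.3 CPM to 22.2, 26.1 and 33.8 CPM, again without overlap. Srebf2 changed by -0.42, from 138, 167 and 185 CPM to 108, 121 and 149 CPM, and was lower in 8 of 8 pairs. Srebf1, whose products favour fatty acid genes, changed by -0.12 (limma adjusted p = 0.0464) with 4 of 8 pairs lower, and Scap by -0.07. Insig2, the second INSIG gene, was at -0.03 and did not pass the test (limma adjusted p = 0.375).

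Among the efflux and nuclear receptor genes, Abca1 changed most. Abca1 (chr4:53030787-53159895), the cholesterol and phospholipid export pump, ran at 53.7, 81.8 and 124.8 CPM in PBS and at 122.9, 168 and 197 CPM after IL1A+TNF. Only the lowest treated retina lay within the PBS range, all 8 mouse pairs were higher, and the log2 fold change was 1.03 (SE 0.0914, limma adjusted p = 1.94e-14). Its partner pump Abcg1 rose by 0.11 (limma adjusted p = 0.0139) and Nr1h2 by 0.18, each in 8 of 8 pairs. Nr1h3 was at 0.15 and did not pass the test (limma adjusted p = 0.115). The fatty acid genes fell by small amounts, with Fasn, the fatty acid synthase, at -0.15 and Scd2 at -0.14, and both overlapped PBS.

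Within a mouse, the eyes differed by amounts close to those between groups. Over the 8 mice with both eyes, the log2 difference of the IL1A+TNF eye from the PBS eye ran from -1.49 to -0.60 for Insig1 (median -1.06), from -0.95 to -0.58 for Hmgcs1 (median -0.78) and from -1.01 to -0.57 for Idi1 (median -0.86). Stard4 had a median of -0.64 and was lower in all 8. Abca1 ran from 0.77 to 1.46 (median 0.99), so that no mouse had a higher Abca1 level in its PBS eye. Ebp ran from -0.03 to 1.34 (median 0.72), while Pmvk, from -0.31 to 0.68 (median 0.08), took both signs.

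**Figure D2:**
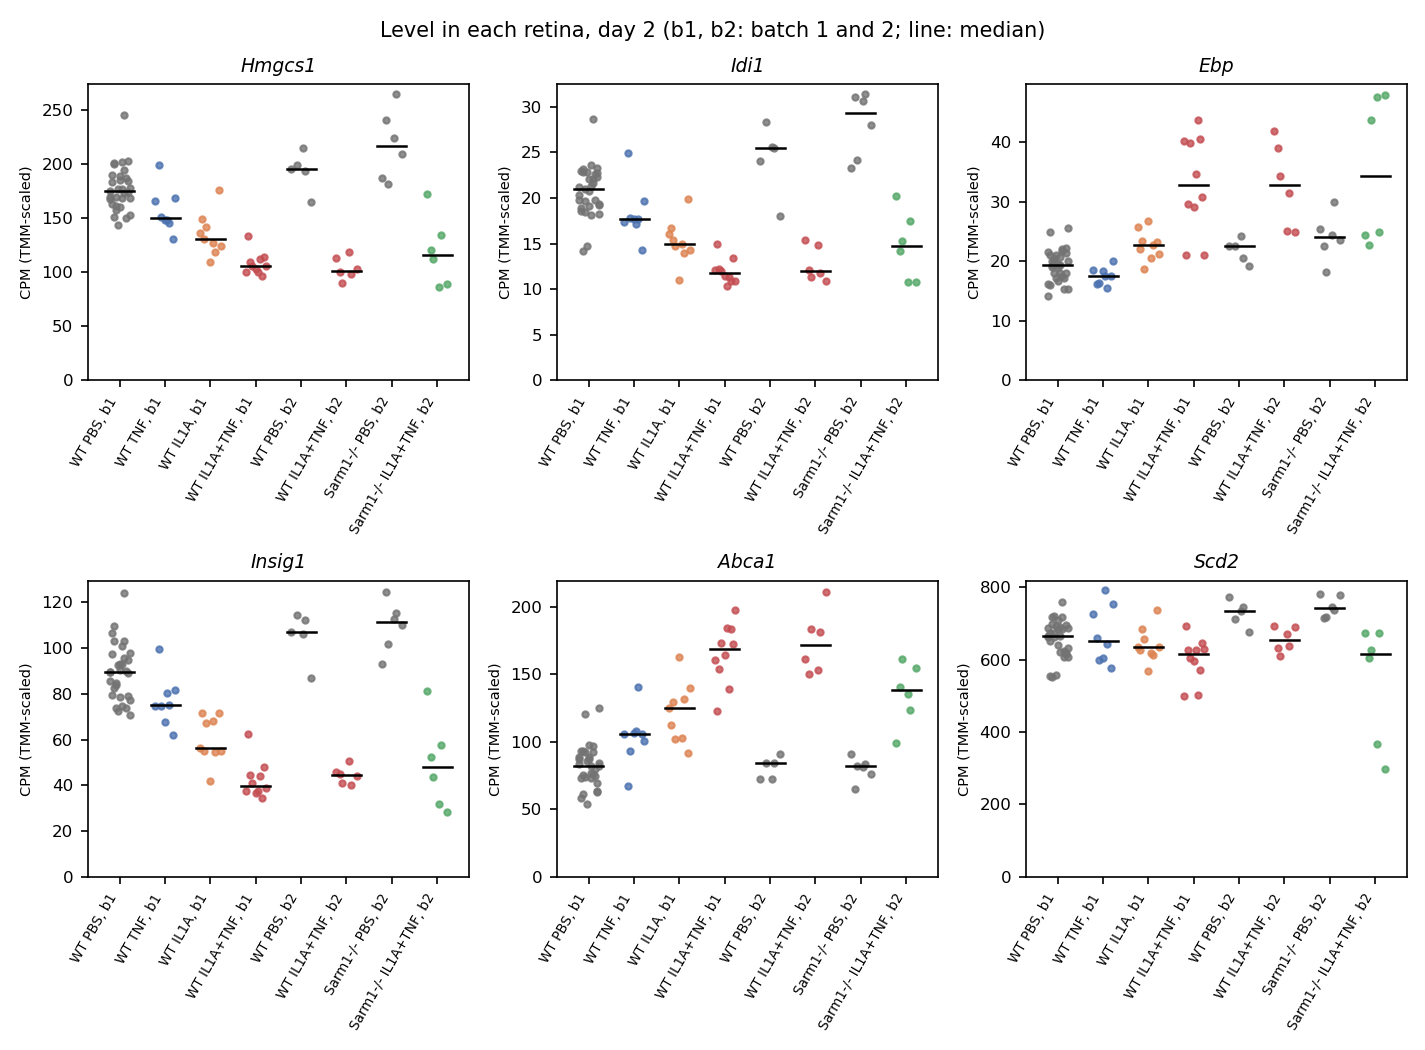
CPM of 6 members in each day 2 retina, 1 panel per gene, with a point per retina and a line at the group median; b1 and b2 are batch 1 and batch 2. Insig1 and Hmgcs1 of the IL1A+TNF retinas in b1 lie below all 31 PBS retinas, Abca1 and Ebp lie mostly above, and 2 Sarm1-/- retinas have Scd2 at 299 and 367 CPM.

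Exons of some members are shared with other annotated genes, and whether counting used strand is not given in the sources used here. Of the exonic length, 26.7% of Fdps is shared with Gm43738 on the same strand, 18.3% of Fdft1 with Ctsb on the opposite strand, 13.2% of Scap and 12.1% of Hmgcs1 with opposite strand transcripts, and 12.1% of Tm7sf2 with Vps51 on the same strand. Acat2, Insig1, Stard4, Ebp and Abca1 share no exonic base with another gene.

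Marker sums moved with the same comparison. The summed CPM of 5 monocyte and macrophage markers ran at 9.23, 43.2 and 120.5 in PBS retinas and at 218, 364 and 597 in IL1A+TNF retinas of batch 1. That of 6 Muller glia markers was lower, at 2208, 3485 and 4223 in PBS and at 1560, 2606 and 3199 after IL1A+TNF, with overlapping ranges, although of the 6 markers 2 were called higher and 2 lower. That of 4 cone markers went from 551, 766 and 903 to 116, 210.5 and 643, and that of 6 retinal ganglion cell (RGC) markers from 477, 585 and 692 to 413, 470.5 and 559. Medians of the sums also went from 6.06 to 50.1 CPM for neutrophil markers. Astrocyte medians went from 100.2 to 264 CPM, although of the 3 markers 2 were called higher and 1 lower. Microglia medians went from 81.9 to 135 CPM (4 of 6 markers called higher and 1 lower). Those of the pigment epithelium went from 67.1 to 20.7 CPM (4 of 4 lower). The rod median went from 15070 to 9555 CPM (4 of 5 markers called lower). The bipolar cell median went from 1161 to 947 CPM (3 of 4 lower) and the amacrine cell median from 595 to 484 CPM (3 of 3 lower). That of the endothelium went from 36.2 to 57 CPM (3 of 3 higher). No marker of the monocyte, Muller glia, cone and RGC lists was at 0 in all retinas of a group. The part of all these marker lists in the members' changes was not tested.

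After IL1A alone, fewer members passed the test than after both cytokines. In 9 IL1A retinas against the same 31 PBS retinas, 22 members passed (21.4% of all genes), of which 19 were lower (9.45% of all genes) and 3 higher (12% of all genes). The median over members was -0.18, and over all genes -0.01. Insig1 ran at 41.9, 56.1 and 71.7 CPM after IL1A, a log2 fold change of -0.58 (SE 0.0769, limma adjusted p = 1.88e-08), with 6 of 7 mouse pairs lower. Hmgcs1 was at 109.7, 131 and 176 CPM (-0.40), Idi1 at 11, 14.9 and 19.8 CPM (-0.45) and Fdps at 23.6, 30.1 and 38.4 CPM (-0.43). The 3 members that rose were Abca1 at 91.3, 125 and 163 CPM (0.58), Ebp at 18.6, 22.7 and 26.8 CPM (0.24) and Pmvk at 35.9, 39.9 and 44.2 CPM (0.21). IL1A ranges overlapped PBS for each of these genes. The other enzymes of the early route that fell were Acat2 (-0.26), Mvk (-0.13) and Mvd (-0.18). Of the later enzymes, Msmo1 changed by -0.38, Fdft1 by -0.32, Cyp51 by -0.30, Nsdhl by -0.28, Lss by -0.27, Sqle by -0.24, Hsd17b7 and Dhcr7 by -0.20 and -0.18, and Sc5d by -0.14. Stard4 (-0.30), Srebf2 (-0.20) and Fasn (-0.18) also fell, the last at -0.15 after both cytokines. Srebf1, at 0.02, did not pass and lay on the other side of 0 from its value after both cytokines. The monocyte and macrophage marker sum had a median of 204 CPM after IL1A and that of the Muller glia markers 2599 CPM, although of the 6 Muller glia markers 1 was called higher and 2 lower. Medians also went from 766 to 488.5 CPM for cone markers, all 4 called lower, and from 6.06 to 42 CPM for neutrophil markers. Microglia medians went from 81.9 to 133 CPM and endothelium medians from 36.2 to 58.7 CPM (3 of 3 endothelium markers called higher). Amacrine cell medians went from 595 to 520 CPM (3 of 3 lower) and RGC medians from 585 to 515 CPM (4 of 6 lower). The rod median went from 15070 to 12890 CPM (3 of 5 lower), and the part of these lists was not tested. With mouse as a fixed replicate block, in the 7 mice with both eyes, 12 members passed, 11 lower and 1 higher, against 6.76% of all genes.

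TNF alone gave no call among the members. In 8 TNF retinas, 0 of 30 passed the limma test (0.655% of all genes), 16 had an unadjusted p under 0.05 (7.66% of all genes), edgeR called 0 and DESeq2 called 1. All 18 synthesis enzymes had a log2 fold change below 0, with a median of -0.14, against -0.002 over all genes. Medians of the marker sums went from 43.2 in PBS to 189.8 CPM after TNF for monocytes and macrophages, although 0 of the 5 markers were called. Those of microglia went from 81.9 to 120 CPM (2 of 6 markers called higher). The pigment epithelium median went from 67.1 to 20.8 CPM (1 of 4 markers called lower), and the part of these lists was not tested. Insig1 ran at 62.1, 74.9 and 99.6 CPM (-0.22, limma adjusted p = 0.317) and Abca1 at 67.4, 105 and 140.5 CPM (0.33, limma adjusted p = 0.136). Dhcr7, which makes the last double-bond reduction, was nearest the threshold at -0.17 (limma adjusted p = 0.0546). Replicate 6 held the highest TNF value of Insig1 (99.6 CPM), Msmo1 (71.3 CPM) and Stard4 (45.7 CPM), and its monocyte and macrophage marker sum was 3.82 CPM, against 57.4 to 295 in the other 7. Without that retina, 6 members passed (2.19% of all genes). They were Hmgcs1 (-0.24), Msmo1 (-0.26), Hsd17b7 (-0.21), Dhcr7 (-0.21) and Insig1 (-0.29), all lower, and Abca1 (0.39), higher.

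The 3 treatments were compared with the same PBS retinas. Retina by retina, the mean log2 difference of the 18 enzymes from PBS was below 0 in 7 of 8 TNF retinas (median -0.14), 9 of 9 IL1A retinas (-0.20) and 10 of 10 IL1A+TNF retinas (-0.38). Among the PBS retinas it was below 0 in 17 of 31.

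**Figure D3:**
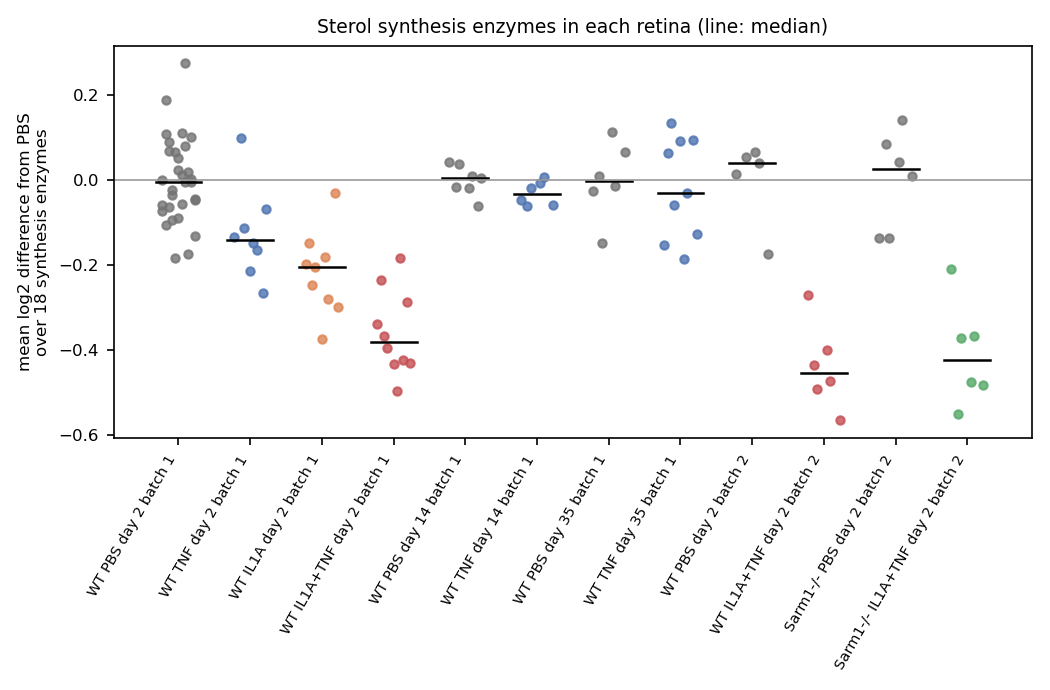
Mean log2 difference of the 18 synthesis enzymes from the PBS mean of the same genotype, batch and day, with a point per retina and a line at the group median. The day 2 IL1A+TNF retinas lie between -0.18 and -0.56, and the day 14 and day 35 TNF retinas lie between -0.19 and 0.13.

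IL1A+TNF was also compared with each cytokine directly. Against IL1A, 15 members passed (10.1% of all genes), 12 of them lower (4.68% of all genes). Insig1 was lower by a log2 fold change of -0.49 (SE 0.096, limma adjusted p = 0.000402), Stard4 by -0.35 and Hmgcs1 by -0.31. Ebp (0.49), Abca1 (0.46) and Nr1h2 (0.12) were higher. Against TNF, 25 passed (39% of all genes), 21 of them lower (19% of all genes), and Insig1 was at -0.85, Ebp at 0.86 and Abca1 at 0.71. The Ebp, Lss and Stard4 ranges of the IL1A+TNF and TNF retinas were separate, 3 members against 6.2% of all genes.

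The interaction term asks whether the effect of both cytokines differs from the sum of their separate log2 effects. It was called for 1 member, Ebp (3.6% of all genes were called), at 0.62 (95% interval 0.34 to 0.91, limma adjusted p = 0.00867). Ebp was at -0.13 after TNF and 0.24 after IL1A, against 0.74 after both. For Insig1 the term was -0.27 (95% interval -0.52 to -0.02, limma adjusted p = 0.234), for Stard4 -0.23 (limma adjusted p = 0.101) and for Abca1 0.13 (95% interval -0.17 to 0.44).

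Batch 2 held a separate set of WT mice with the same treatment. In 6 IL1A+TNF and 5 PBS retinas, 20 members passed (20.7% of all genes), 18 lower (7.45% of all genes) and 2 higher (13.2% of all genes), and 18 members did not overlap between groups (21.9% of all genes, with these small groups). Insig1 was at 86.9, 106, 107, 112 and 115 CPM in the PBS retinas and at 40.3, 44.4 and 50.8 CPM (lowest, median and highest) after IL1A+TNF, a log2 fold change of -1.21 (SE 0.162, limma adjusted p = 2.91e-05). Hmgcs1 changed by -0.88, Idi1 by -0.91, Fdps by -0.83, Stard4 by -0.75 and Srebf2 by -0.54. Of the other enzymes, Msmo1 changed by -0.69, Fdft1 by -0.63, and Lss, Sqle, Cyp51, Tm7sf2, Acat2, Dhcr7, Nsdhl, Hsd17b7 and Sc5d by -0.57 to -0.32, and Fasn changed by -0.35. Abca1 was at 72.6, 72.7, 84, 84.5 and 91 CPM in PBS and at 149.9, 171 and 211 CPM after IL1A+TNF, a log2 fold change of 1.09 (SE 0.12, limma adjusted p = 4.88e-06), and Nr1h2 was the other higher member at 0.19. Ebp was at 0.54, higher in 5 of 5 pairs, and did not pass the test (limma adjusted p = 0.0744), nor did Pmvk (0.27, limma adjusted p = 0.248). The spread in this fit was estimated over all 23 retinas of batch 2, those of Sarm1-/- mice included. Without the 2 Sarm1-/- retinas that stand apart, 23 members passed (36.6% of all genes), with Ebp at 0.56 (limma adjusted p = 0.0184) among the 3 higher and Mvk (-0.22) and Scd2 (-0.15) among the 20 lower. The median monocyte and macrophage marker sum went from 42.9 to 475 CPM in these retinas and that of the Muller glia markers from 3634 to 2463 CPM, although of the 6 Muller glia markers 2 were called higher and 2 lower. Medians also went from 694 to 239.8 CPM for cone markers, all 4 called lower, and from 2.57 to 72.9 CPM for neutrophil markers. Astrocyte medians went from 94.6 to 257 CPM, with 2 of 3 markers called higher and the other at -0.47 and not called. Microglia medians went from 87.4 to 168.8 CPM (4 of 6 microglia markers called higher). Endothelium medians went from 44 to 72.7 CPM (2 of 3 higher) and rod medians from 16200 to 12170 CPM (3 of 5 lower). The part of these lists was not tested.

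In Sarm1-/- mice most members were lower after IL1A+TNF too. Over 6 IL1A+TNF and 6 PBS retinas, 26 members passed (43.5% of all genes), 22 lower (22.2% of all genes) and 4 higher (21.3% of all genes), which were Abca1, Ebp, Pmvk and Nr1h2, and 13 did not overlap (5.17% of all genes). Insig1 ran at 93.2, 111 and 125 CPM in PBS and at 28.5, 48 and 81.2 CPM after IL1A+TNF, a log2 fold change of -1.22 (SE 0.13, limma adjusted p = 1.56e-10). Stard4 changed by -0.87, Hmgcs1 by -0.88, Idi1 by -0.92, Fdps by -0.83, Srebf2 by -0.63 and Abca1 by 0.77. Of the other enzymes, Fdft1 changed by -0.61, Acat2 by -0.58, and Sqle, Cyp51, Tm7sf2, Nsdhl, Dhcr7, Lss, Msmo1, Mvk, Hsd17b7 and Sc5d by -0.50 to -0.20. Scd2 was at -0.52, Fasn at -0.29, Srebf1 at -0.19 and Insig2 at -0.10, and of the higher members Ebp was at 0.50, Pmvk at 0.33 and Nr1h2 at 0.19. Medians of the marker sums went from 39.5 to 274.5 CPM for monocytes and macrophages, and from 3586 to 2215 CPM for Muller glia. They went from 731 to 286 CPM for cones and from 578 to 365 CPM for RGCs (6 of 6 markers called lower). Neutrophil medians went from 6.09 to 77.85 CPM, and the part of these lists was not tested. With mouse as a fixed replicate block, in 6 mice, 0 members and 0 of all genes passed, while 22 members had an unadjusted p under 0.05 (28.8% of all genes). The retinas of replicates 4 and 5 stood apart, with RGC marker sums of 94.8 and 78.3 CPM, against 256 to 580.3 in the other 4. Their amacrine marker sums were 96.9 and 98.3 CPM, against 401 to 556, and their bipolar cell sums 285 and 273.5 CPM, against 830.4 to 1137. Their neutrophil sums were 191 and 184 CPM, against 29.3 to 88.1. Without them, 17 members passed (12.6% of all genes), 16 lower, and Abca1 higher at 0.68. Insig1 was then at -0.95, Stard4 at -0.70, Hmgcs1 at -0.72 and Idi1 at -0.75, while Ebp (0.24, limma adjusted p = 0.312) and Pmvk (0.15, limma adjusted p = 0.483) did not pass. Nor did Nr1h2 (0.08), Scd2 (-0.21), Fasn (-0.22), Mvk (-0.16), Tm7sf2 (-0.26), Srebf1 (-0.14) and Insig2 (-0.09).

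**Figure D4:**
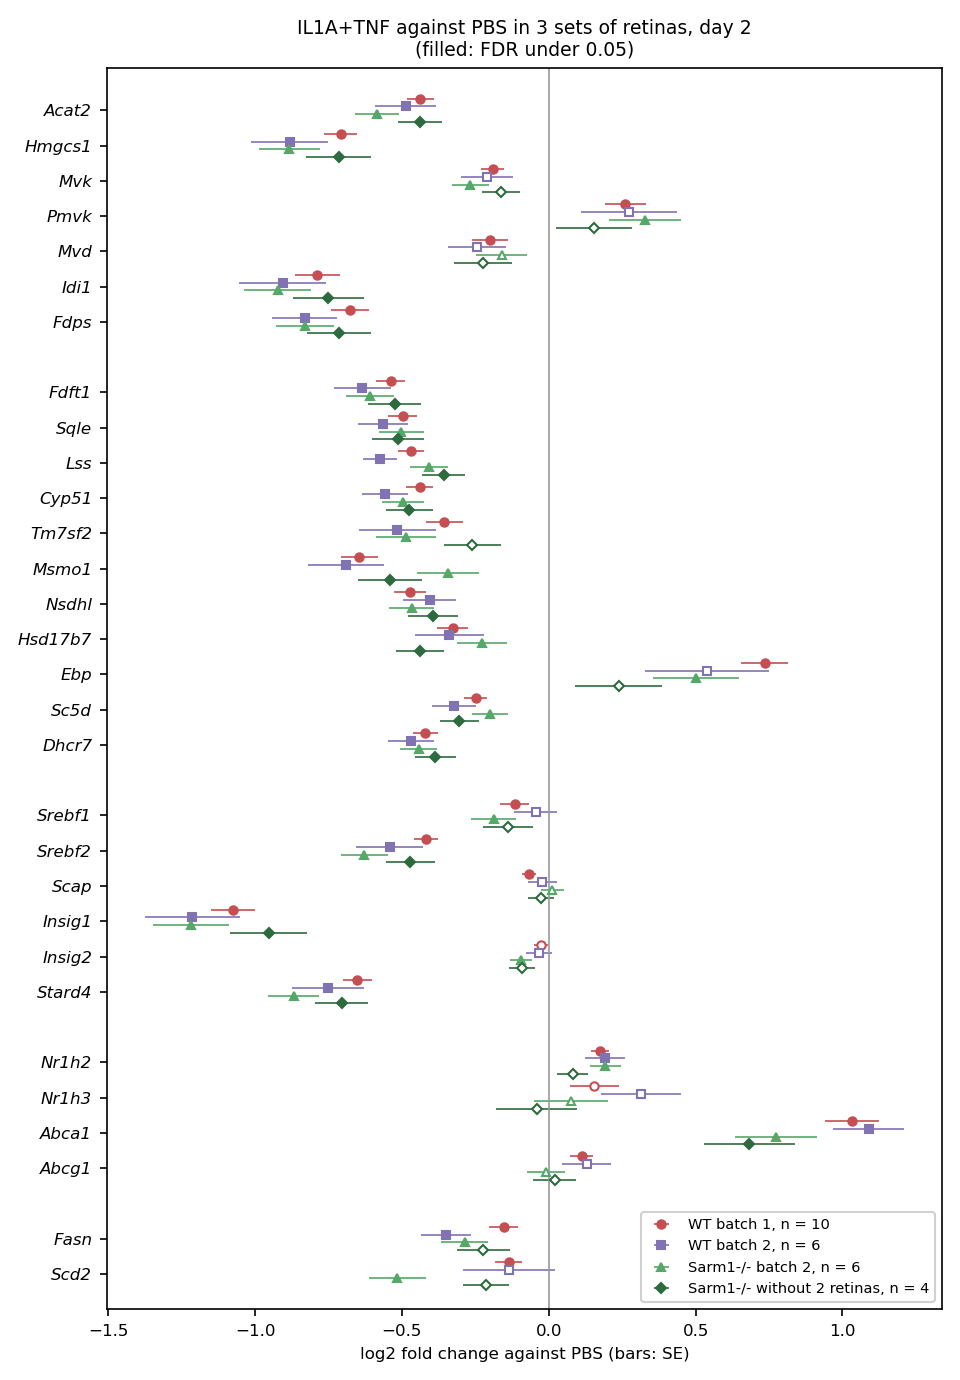
Log2 fold change of each member after IL1A+TNF against PBS in WT batch 1, WT batch 2 and Sarm1-/- retinas, the last also without the 2 retinas that stand apart, with bars for the SE and filled symbols where the false discovery rate is under 0.05. The Sarm1-/- values come from fits of both batches together and the WT values from fits of 1 batch each, so the SE bars rest on unlike fits. Insig1 lies between -0.95 and -1.22 and Abca1 between 0.68 and 1.09 in all of them, and Scd2 moves from -0.52 to -0.21 in Sarm1-/- when the 2 retinas are left out.

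The genotypes were compared in the same joint fit with a batch term. In PBS retinas 0 members passed (0.0397% of all genes), and 4 had an unadjusted p under 0.05 (4.88% of all genes), among them Hmgcs1 at 0.25 and Idi1 at 0.25 (Sarm1-/- minus WT). DESeq2 and edgeR called 0 as well. After IL1A+TNF, 3 members passed (14.8% of all genes): Msmo1 (0.41) and Sc5d (0.19), higher in Sarm1-/-, and Scd2 (-0.34), lower. Marker sums differed too, with microglia medians of 115.9 CPM in Sarm1-/- and 168.8 CPM in WT retinas of batch 2 after IL1A+TNF. Those of monocytes and macrophages were 274.5 and 475 CPM, and the part of both lists was not tested. The genotype by treatment interaction was called for Scd2 alone (8.75% of all genes were called), at -0.38 (95% interval -0.61 to -0.16, limma adjusted p = 0.0214). Scd2 ran at 716, 742 and 783 CPM in Sarm1-/- PBS retinas. After IL1A+TNF the 6 retinas were at 299, 367, 606, 626, 673 and 675 CPM, the lowest values being those of the retinas that stand apart. Without them 0 members passed in either comparison (0.889% and 0% of all genes), and the interaction of Scd2 was -0.07 (limma adjusted p = 0.773). For Insig1 the interaction over all retinas was -0.11 (95% interval -0.40 to 0.19) and for Abca1 -0.28 (95% interval -0.59 to 0.04), and without the 2 retinas they were 0.17 (limma adjusted p = 0.647) and -0.36 (limma adjusted p = 0.395).

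TNF retinas were also taken on days 14 and 35. No member passed on day 14, on which 1 (Fdps, -0.10) had an unadjusted p under 0.05 (4.45% of all genes). None passed on day 35, on which none had such a p (4.93% of all genes). On both days 0% of all genes passed the limma test. edgeR and DESeq2 also called 0 members on each day. Insig1 ran at 99.3, 109 and 117 CPM in PBS and 96.2, 102 and 120.4 CPM in TNF retinas of day 14, and at 81.4, 92 and 108.3 CPM and 72.7, 91.5 and 107 CPM on day 35. Abca1 ran at 85.6, 102 and 118 CPM in PBS and 80.8, 95.6 and 115 CPM in TNF retinas of day 14, and at 56.2, 74.5 and 96.1 CPM and 72.9, 79.8 and 97.8 CPM on day 35. The ranges of Insig1 and of Abca1 overlapped on both days. Nr1h2, picked out here after its values were seen, did not overlap on day 14, with 54.3 to 57.9 CPM in PBS and 50.6 to 53.8 CPM in TNF retinas (-0.06, limma adjusted p = 0.90), 1 of 30 members against 0.0323% of all genes. The median of the 18 enzymes' mean log2 difference was -0.03 on each day.

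The PBS retinas themselves differed by day. On day 14 against day 2, 10 members passed (19.2% of all genes), 8 higher and 2 lower. Insig1 was higher by 0.27, Abca1 by 0.28 and Abcg1 by 0.23, and Ebp (-0.38) and Pmvk (-0.34) were lower. On day 35 against day 2, 6 passed (32.8% of all genes). Abcg1 (0.28) and Scap (0.08) were higher, and Pmvk (-0.53), Srebf1 (-0.42), Ebp (-0.41) and Scd2 (-0.12) lower. Ebp ran at 14.2, 19.3 and 25.6 CPM on day 2, at 13.3, 14.9 and 16.2 CPM on day 14 and at 12.6, 14.5 and 16.2 CPM on day 35. Pmvk ran at 26.8, 34.7 and 49.7 CPM, then at 24.1, 26.8 and 32.8 CPM and at 22.4, 23.4 and 27.4 CPM. Ebp and Pmvk, the synthesis enzymes that rose after IL1A+TNF, were also higher in control retinas on day 2 than later. Abca1 and Abcg1, which rose after IL1A+TNF too, were instead lower in control retinas on day 2 than on day 14. Medians of the marker sums in PBS retinas on days 2, 14 and 35 were 100.2, 43.3 and 23.5 CPM for astrocytes. In the same order they were 81.9, 51 and 40.5 CPM for microglia, and 43.2, 14.2 and 4.57 CPM for monocytes and macrophages. Those of neutrophils were 6.06, 0.64 and 0.59 CPM, and those of cones 766, 930 and 982 CPM. The part of these lists was not tested. Both comparisons share the day 2 retinas, and the days come from different mice, so day cannot be told apart from collection.

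**Figure D5:**
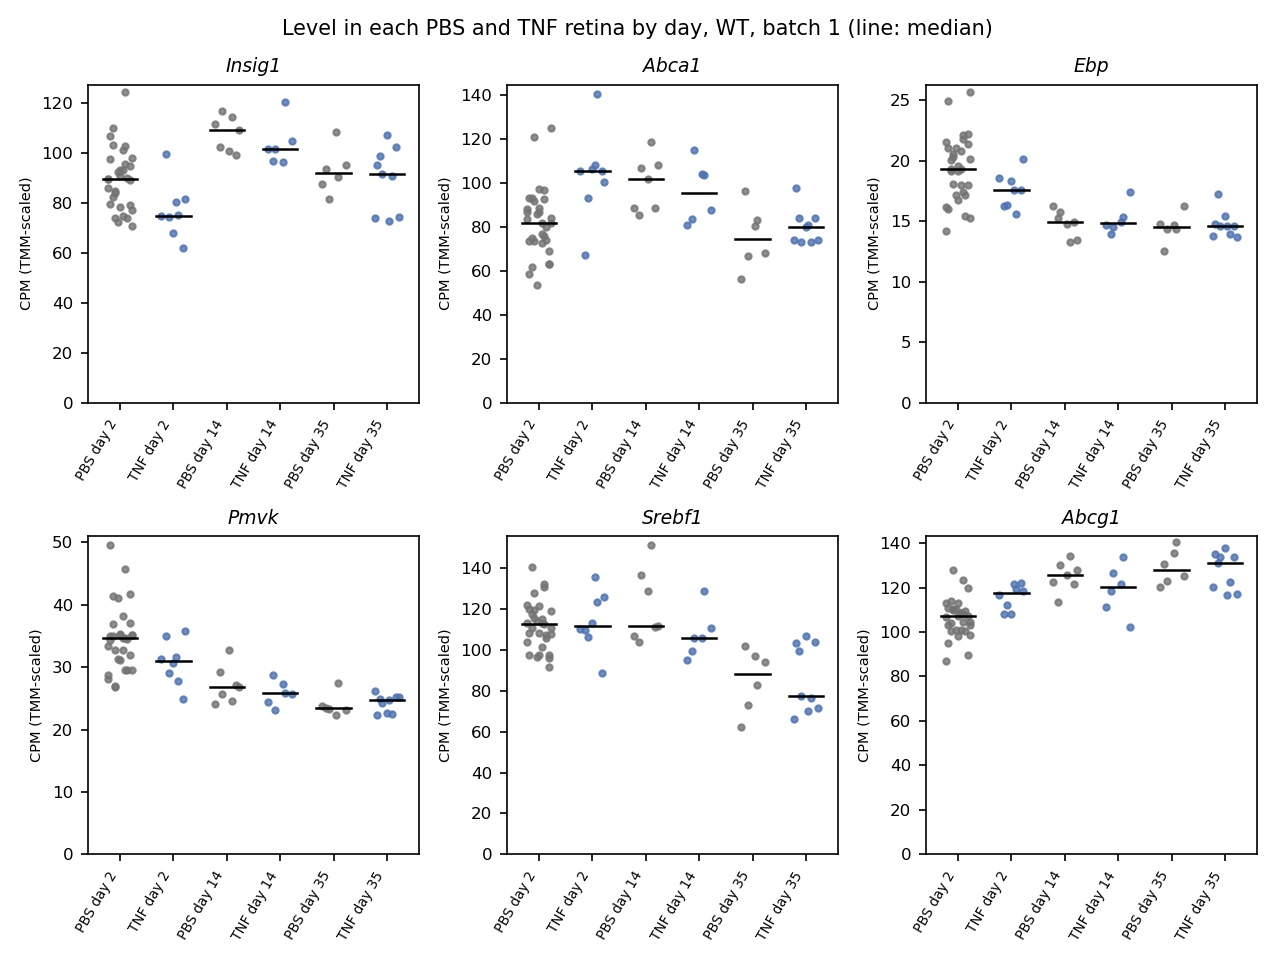
CPM of 6 members in each PBS and TNF retina of batch 1 by day, with a point per retina and a line at the median. PBS and TNF points overlap in every panel and on every day, while the medians of Ebp and Pmvk of both treatments are lower on days 14 and 35 than on day 2.

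A list of 47 other genes of the pathway was examined beside the members. After IL1A+TNF in WT retinas of batch 1, 35 passed (50.4% of all genes), 20 higher (24.9%) and 15 lower (25.5%), with a median log2 fold change of 0.01. Of 13 genes of uptake and lysosomal transport, 7 rose and 4 fell. Those that rose included the lysosomal lipase Lipa (0.67), the lysosomal sterol carrier Npc2 (0.48), Scarb2 (0.41) and Mylip (0.17), an LXR target that marks lipoprotein receptors for degradation. Those that fell were the lipoprotein receptors Vldlr (-0.51), Scarb1 (-0.31) and Lrp8 (-0.13), and the sterol transfer gene Gramd1b (-0.51). Of 7 genes of sterol esters and oxysterols, 4 rose, among them the esterifying enzyme Soat1 (0.52) and Ch25h (0.59), the cholesterol 25-hydroxylase, and Cyp46a1, the neuronal cholesterol 24-hydroxylase, fell (-0.30). Of 7 genes of SREBP processing and sterol-regulated degradation, 3 rose, with Rnf145, an LXR-induced ubiquitin ligase, at 0.31, and 4 did not pass. Of 6 LXR partners and targets, Rxrb (0.19) and Lpcat3 (0.37) rose and Rxrg (-0.66) and Abcg4 (-0.30) fell. Of 10 fatty acid genes under SREBP1, 6 fell, among them Scd1 (-0.71), Lpin1 (-0.43) and Elovl6 (-0.37), and Acaca (0.21) and Elovl5 (0.23) rose. Of 4 genes of further isoprenoid and sterol synthesis, 2 rose and 2 fell. IL1A alone gave 18 calls in the list of 47 (21.4% of all genes), 9 in each direction, and TNF alone gave 0, with 4 at an unadjusted p under 0.05 (7.66% of all genes).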

How the data were processed

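Polyadenylated RNA of 109 retinas was sequenced as paired ends. Raw counts per gene were deposited; per the study's methods, the authors made them with featureCounts (Subread 2.0.1) from STAR 2.7.9a alignments on mm10; the annotation release and the strand setting are not given in the sources used here. Of 37315 genes, 5937 were at 0 in all retinas. Low genes were removed by filterByExpr (minimum count 10), counts were scaled by TMM, and groups were compared in R 4.3.3 with limma 3.58.1 (voom, 2 rounds of duplicateCorrelation with mouse as the block) and edgeR 4.0.16, with sex as a covariate, and Benjamini-Hochberg adjustment over all tested genes at 0.05. The fit of PBS retinas by day had no mouse block, and 1 mouse gave 2 of its 7 day 14 retinas. Genotypes, and IL1A+TNF with PBS in Sarm1-/- mice, were compared over 81 day 2 retinas with a batch term. CPM are TMM-scaled over all retinas. Retinas were paired by mouse, as the sample titles give it; the correlation within mice was 0.0515 in the day 2 fit of batch 1. Alternatives were edgeR's quasi-likelihood test, DESeq2 1.42.0, other scalings and filters, no sex term, mouse as a fixed block and leaving out retinas. The code of the fits was tested on simulated data. No pair of libraries within a group agreed within sampling noise. The 30 members were all named; statistics were given in full for those the results turn on, and fold changes or ranges for the rest. The members and gene lists were chosen with earlier results of these data known. The retinas come from separate mice or from both eyes of a mouse, and each p-value sets a difference against the spread between the retinas of its fit. Precision follows from depth and from the number of retinas. Some genes of the pathway are not reported here.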

Additional observations from a re-analysis of the deposited data

Results flagged for a closer look

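In groups of 4 to 10 retinas, 19 of 330 combinations of member and group (5.76%) had a retina whose gap to its nearest neighbour, as a share of the group's range, passed Dixon's 95% limit, where chance gives about 1 in 20. Replicate 4 of the WT PBS retinas of batch 2 was the lowest for 4 members, with Cyp51 at 64.3 CPM (others 74.3 to 77), Dhcr7 at 29.8 (33.8 to 35.2), Srebf2 at 173 (186 to 188) and Insig1 at 86.9 (106 to 115). Replicate 6 of the day 2 TNF retinas was the highest for Msmo1 at 71.3 CPM (46 to 56.2) and Stard4 at 45.7 (34.3 to 39.2). In the other retinas of day 2, Hmgcs1 was at 134 CPM in IL1A+TNF replicate 9 of batch 1, Sc5d at 34.6 in IL1A replicate 8, Nr1h3 at 4.76 in IL1A replicate 1, Dhcr7 at 21.3 and Fasn at 221 in WT IL1A+TNF replicates 3 and 4 of batch 2, and Sqle at 64.6 in Sarm1-/- IL1A+TNF replicate 1. On day 14, Idi1 was at 18.3 CPM and Dhcr7 at 25.4 in PBS replicates 5 and 1, and Tm7sf2 was at 12.5 and Nr1h2 at 50.6 in TNF replicates 2 and 5. On day 35, Pmvk was at 27.4 CPM and Insig2 at 52.8 in PBS replicates 2 and 1, and Abca1 was at 97.8 in TNF replicate 9.

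An interaction term was called for 2 members, 1 in each of the 2 interactions tested. The log2 effect of IL1A on Ebp was larger by 0.622 in the presence of TNF (1 of 30 members, where 3.6% of all genes were called), and the log2 effect of IL1A+TNF on Scd2 differed by -0.385 between Sarm1-/- and WT (1 of 30, where 8.75% of all genes were called). The Scd2 difference was -0.07 without the 2 Sarm1-/- retinas that stand apart (limma adjusted p = 0.773), and it did not pass with edgeR, with DESeq2 or in batch 2 alone.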

How the results depend on the processing

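No member that passed a test changed sign under any alternative run. The count of members called for TNF alone on day 2 was 0 of 30. It became 1 with a filter at an average of 1 CPM, 1 with DESeq2 and 1 in a joint fit of batch 1. It ran from 0 to 6 when each TNF retina was left out (6 without replicate 6, where 2.19% of all genes were called). For the genotype by treatment interaction, 1 became 0 with edgeR's quasi-likelihood test, 0 with DESeq2 and 0 in batch 2 alone. This count ran from 0 to 4 when each mouse was left out. It was 0 without Sarm1-/- mouse 4 or mouse 5, 4 without mouse 1, and 2 without mouse 2 or mouse 6. The share of all genes called was 8.75% over all retinas and 0% without the 2 retinas that stand apart. It is not given here for the fits without 1 mouse, so their counts of members cannot be set against it. The 3 members called between genotypes after IL1A+TNF became 0 in batch 2 alone. Without the 2 Sarm1-/- retinas that stand apart, an alternative added after seeing the data, that count was 0, the interaction 0, the count for IL1A+TNF in Sarm1-/- mice 17 and that for WT batch 2 23 (20 with them).

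With mouse as a fixed replicate block, the 22 calls for IL1A became 12 and the 26 for IL1A+TNF in Sarm1-/- mice became 0; in WT they were 22 in batch 1 (37.1% of all genes) and 22 in batch 2 (29.6% of all genes). Without any replicate block, counts of members were as with the random block in the comparisons that had one (28, 22 and 0 for IL1A+TNF, IL1A and TNF). Of the calls of single members, 11 of 280 values lost the threshold for IL1A+TNF in WT retinas of batch 1, 12 of 220 for IL1A and 57 of 442 for IL1A+TNF in Sarm1-/- mice, each keeping its direction. In batch 2 alone, 8 of 30 values of the comparisons with Sarm1-/- retinas lost the threshold, also without a change of direction. Group sizes of 6 to 10 treated retinas limit what the fits can call.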
